A study of Mus musculus with 16 samples.

Results

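mmu-miR-143 and mmu-miR-145 are a pair of microRNAs (miRNAs, short RNAs that lower the output of mRNAs they pair with) cut from a single primary transcript. They were followed across 16 Agilent mouse miRNA arrays of dorsal skin, where they are 2 of the 577 miRNAs on the array. The members were chosen by name, as the 2 miRNAs of that transcript. The pair was proposed with earlier results of these arrays known, in which miR-145 stood among the largest falls of irradiated against non-irradiated Ppard-/- skin. The UV difference in that genotype is therefore given as a description, with no test. Each of the 4 groups had 4 arrays. WT no UV was skin of Ppard+/+ mice without irradiation, and KO no UV was skin of Ppard-/- mice, which lack the nuclear receptor PPARβ/δ, without irradiation. WT UV and KO UV were skin of the same genotypes after 12 weeks of UVB at 70 mJ/cm2, 3 times a week. All mice were hairless females on the mixed background SKH1-C57/Bl6-SV129, 8 to 12 weeks of age as the methods put it, with the genotypes as littermates, and the irradiated skin was taken from sites without lesions. The other mice were age-matched and sham-handled. The knockout is carried by every cell of the animal, so no cell type is singled out by the model.

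Mammalian miR-143 and miR-145 are best known from smooth muscle. In that tissue serum response factor and its partner myocardin switch on their host transcript, and the pair favours the contractile over the dividing state of the cell. In skin, such cells line the walls of vessels and form the small muscles of the hair follicle, and fibroblasts also make the pair. The label smooth muscle could not be checked here, because a miRNA array carries no probe for smooth muscle mRNAs such as actin or myosin chains. The Ppard transcript is likewise not measured by this array, so the genotype labels were not checked. In the mm9 build that the array annotation uses, both members lie on chromosome 18. The 2 probes of miR-143 are listed at 61808853 to 61808867 and 61808853 to 61808868. Those of miR-145 are listed at 61807520 to 61807532 and 61807520 to 61807533, which leaves 1319 bases between the listed spans. In RefSeq both lie within the span of Carmn, a long non-coding RNA gene that also goes by the name Mir143hg. Member sequences are not printed here.

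The arrays differed in ways that touch these values. All irradiated samples were hybridised on 1 slide and all others on another, so irradiation and slide cannot be told apart. Local background was 119 to 130 intensity units on the irradiated slide and 63.3 to 65.8 on the other, and the SD of the negative control spots was 9.10 to 10.3 against 3.66 to 4.25. Without irradiation the summed miRNA signal per array ran from 170979 to 265981 in WT and from 254694 to 395200 in KO. With irradiation it ran from 223198 to 313107 in WT and from 200905 to 231139 in KO. On the irradiated slide WT and KO also sat in different rows, whereas the other slide held both genotypes in both rows. Levels below are log2 of the quantile-normalized signal, on which every array has the same distribution of values, unless another scale is named.

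miR-143 was detected on 16 of 16 arrays. The unnormalized signal for WT no UV was 372, 796, 309 and 485 intensity units on replicates 1 to 4. In KO no UV it was 778, 1030.5, 999 and 879. The KO no UV arrays were thus high on this scale, and only the second WT array came within their range. Among irradiated arrays the signal was 531, 568, 493 and 643 for WT, and 277, 321, 312 and 609 for KO. Replicate 4 of KO UV stood well above its 3 partners and among the WT UV values. After normalization the non-irradiated level of miR-143 was 9.11 ± 0.41 (SD, n = 4) for WT against 9.55 ± 0.20 for KO, and the irradiated level was 9.13 ± 0.07 for WT against 8.75 ± 0.43 for KO. The order of the group means was KO no UV, WT UV, WT no UV and KO UV. Values of neighbouring groups in this order overlapped, apart from KO no UV, whose lowest value of 9.27 lay above the highest WT UV value of 9.22.

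miR-145 was also detected on 16 of 16 arrays. Its unnormalized signal in WT no UV was 80.5, 159, 61.2 and 90.9 intensity units. In KO no UV it was 158, 185, 201 and 169. For WT UV it was 61.1, 61.3, 51.3 and 57.4, so these arrays were close to or under the dimmest WT no UV array. The KO UV arrays were at 27.5, 28.2, 37.0 and 61.7, and again replicate 4 was the highest of its group. The normalized level without irradiation was 6.71 ± 0.30 (SD, n = 4) for WT against 7.11 ± 0.24 for KO, and with irradiation it was 5.77 ± 0.16 for WT against 5.45 ± 0.46 for KO. Each irradiated array lay below each non-irradiated array, while within either irradiation state the genotypes overlapped. The opposite strand of the miR-145 hairpin, miR-145*, was detected on 0 of 16 arrays and none of its 20 spots was well above background on any of them. The scanner software's own error of miR-145 averaged 9.07% of the signal for WT and 7.72% for KO without irradiation, but 15.6% for WT and 23.4% for KO with it. For miR-143 it stayed between 7.22% and 7.58% in the group means.

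**Figure D1:**
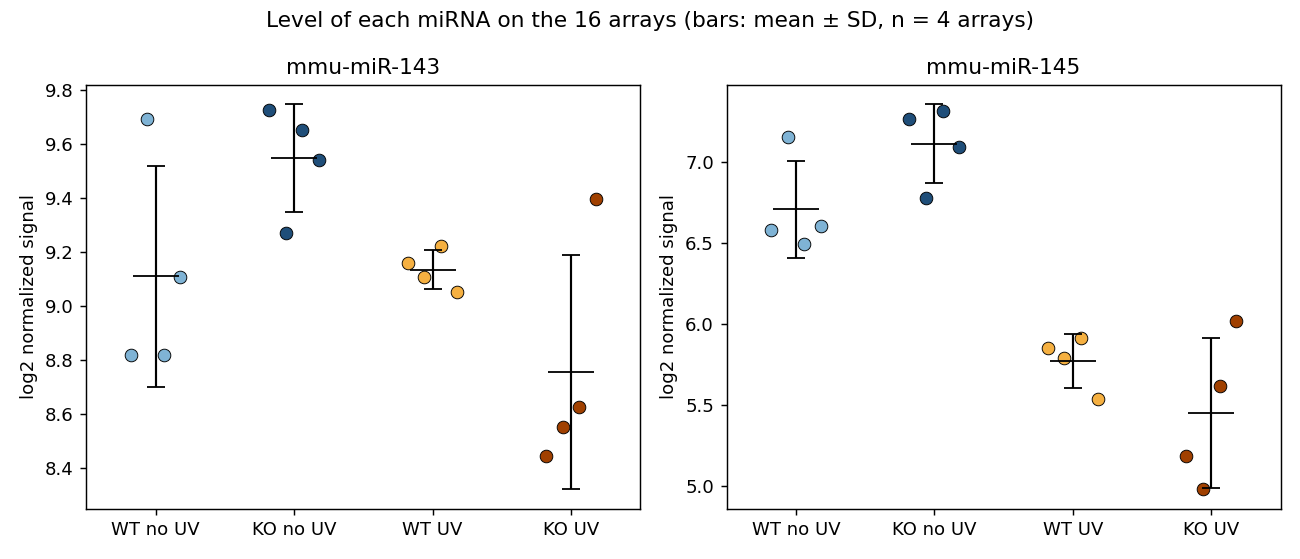
Normalized level of miR-143 (left) and miR-145 (right) in the 4 groups. Each point is 1 array, the vertical axis is the log2 normalized signal (it does not start at 0 and differs between panels), and the bars are the group mean ± SD of 4 arrays. The irradiated arrays of miR-145 all lie below the non-irradiated ones, those of miR-143 do not, and replicate 4 of KO UV is the highest of its group in both panels.

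Without irradiation, which asks what loss of PPARβ/δ alone does to skin miRNAs, both members were higher in KO than in WT on the average. The difference was +0.44 for miR-143 (SE 0.22, 95% interval -0.03 to 0.91; limma adjusted p = 0.349). For miR-145 it was +0.41 (SE 0.21, 95% interval -0.06 to 0.87; limma adjusted p = 0.378). Neither passed the threshold of 0.05, and neither did any of the 228 tested miRNAs (0% called by limma, with 36 at an unadjusted p under 0.05). The 2 intervals reach from about no change to a rise of nearly 1 log2 unit, so a sizeable difference was neither shown nor bounded tightly. The genotypes overlapped in both members. With no normalization between arrays both differences were larger and called, at +0.996 for miR-143 (limma adjusted p = 0.0145) and +0.95 for miR-145 (limma adjusted p = 0.0165), on a scale where the median over all tested miRNAs was itself shifted by +0.52.

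After irradiation the direction was the other way. The KO minus WT difference was -0.38 for miR-143 (SE 0.22, 95% interval -0.85 to 0.09; limma adjusted p = 0.645) and -0.32 for miR-145 (SE 0.21, 95% interval -0.79 to 0.14; limma adjusted p = 0.765). Neither member was among the 5 miRNAs called in this contrast, 2.19% of those tested. Replicate 4 of KO UV weighed on both values, which were -0.59 and -0.51 without it, and for miR-145 the value was -0.16 without replicate 2 of KO UV. Other processing also moved them, to -0.62 and -0.66 with no normalization and, for miR-145, to -0.05 with normexp, and none of these was called. The values of miR-143 overlapped between genotypes only through replicate 4 of KO UV, and those of miR-145 through replicates 3 and 4. As the genotypes occupied different rows of this slide, genotype and row cannot be told apart here.

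In WT skin, where the contrast asks what repeated UVB does to the miRNAs of normal skin, miR-145 fell and miR-143 showed no detectable change. miR-145 was lower by -0.93 on the log2 scale (SE 0.21, 95% interval -1.40 to -0.47), which is 1.91-fold, with limma adjusted p = 0.00963. All 4 irradiated arrays lay below all 4 others, and full separation, in either direction, held for 49 of the 228 tested miRNAs. Here 37 of 228 miRNAs were called, 16.2% of those tested, 21 of them higher and 16 lower. With each array scaled by the 75th percentile over its always-detected miRNAs, the split was 14 higher and 26 lower. For miR-143 the difference was 0.03 (SE 0.22, 95% interval -0.44 to 0.50; limma adjusted p = 0.992), so a change past 0.50 in either direction lies outside the interval. In whole skin a lower value of either miRNA may come from fewer cells that make it or from less of it per cell, and these cannot be told apart. The fall of miR-145 lost its call with no normalization (-0.67, limma adjusted p = 0.0971), and it shrank to -0.29 (limma adjusted p = 0.00616) when local background was modelled by normexp with an offset, which compresses dim signals.

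In KO skin both members were lower after irradiation. miR-145 was lower by -1.66 (SE 0.21), or 3.17-fold, and its groups did not overlap, which held, in either direction, for 46 of the 228 tested miRNAs. The size of this fall is uncertain, as 2, 0 and 2 of the 20 miR-145 spots were well above background on KO UV replicates 1 to 3. miR-143 was lower by -0.79 (SE 0.22), or 1.73-fold, and its groups overlapped through replicate 4 of KO UV. Of all tested miRNAs 68, or 29.8%, were called in this contrast, 42 higher and 26 lower, and since the pair was proposed with this contrast known, nothing is read from its own place there.

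The difference of the UV effects, WT minus KO, asks whether the response to UVB depends on PPARβ/δ. It contains the KO difference above, so for the pair it is likewise given with no test. It was 0.82 for miR-143 (SE 0.31) and 0.73 for miR-145 (SE 0.30), of like size in both members. Of all tested miRNAs 5 were called, again 2.19%, and nothing is read from the place of the pair among them. Without replicate 2 of WT no UV the value of miR-143 was 1.02.

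Whether the pair moves together was asked between arrays of the same group, where no difference between groups enters. Each array's deviation from its group mean was taken for both members. Over the 16 arrays the deviations correlated at Pearson's r = 0.885 (permutation p = 0.00023, adjusted p = 0.00069 over 3 tests) and Spearman's rho = 0.826 (permutation p = 0.00013, adjusted p = 0.00039). The members fell on the same side of their group means on 14 of 16 arrays. On the non-irradiated slide r was 0.944 (permutation p = 0.00672, adjusted p = 0.0101) and rho 0.874 (permutation p = 0.00672, adjusted p = 0.0101), with 8 of 8 arrays on the same side. On the irradiated slide r was 0.852 (permutation p = 0.0174, adjusted p = 0.0174) and rho 0.738 (permutation p = 0.0167, adjusted p = 0.0167), with 6 of 8. There few or none of the miR-145 spots were well above background on KO UV replicates 1 to 3. The arrays farthest out were replicate 2 of WT no UV, at +0.58 for miR-143 and +0.45 for miR-145, and replicate 4 of KO UV, at +0.64 and +0.57. Without these 2 arrays r was 0.705 (permutation p = 0.00444), so the relation did not rest on them alone. The labels do not say whether arrays of a group are separate animals, although the study's methods describe 4 animals per group, and the p-values measure the spread between these arrays.

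**Figure D2:**
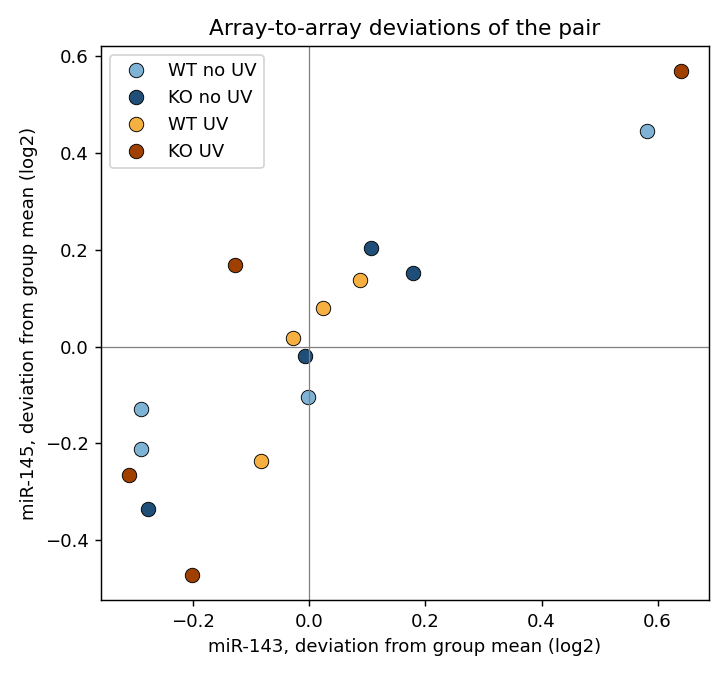
Deviation of each of the 16 arrays from its group mean, miR-143 on the horizontal and miR-145 on the vertical axis, both in log2 units, with points coloured by group. The points run along the diagonal (r = 0.885), and the 2 arrays at the upper right are replicate 2 of WT no UV and replicate 4 of KO UV.

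Of 216 other tested miRNAs whose normalized values varied, the partner was the closest of all to either member by these deviations. For miR-143 the next were miR-193 (r = 0.865) and miR-378 (r = 0.796). For miR-145 they were miR-193 (r = 0.764) and miR-106a (r = 0.682). The median r over the 216 was about 0 for both members (-0.00 and -0.03). At the other end of the order stood miR-21, a miRNA abundant in skin and induced in many inflamed tissues, at r = -0.944 for miR-143 and -0.829 for miR-145. These are descriptions over 16 arrays that share slide and normalization. Over the normalized levels of the 16 arrays, group differences included, the order changed. miR-133b, a miRNA of skeletal muscle, was then closest to both (r = 0.827 for miR-143 and 0.843 for miR-145). The partner came at position 2 for miR-143 and at position 8 for miR-145 (r = 0.798), after miR-133a (r = 0.831) and miR-30b (r = 0.831), while miR-26b was the third for miR-143 (r = 0.794). Once group differences entered the measure, several miRNAs were thus closer to miR-145 than its partner was, miR-26b among them (r = 0.830). The lowest by this measure was miR-21 for miR-143 (r = -0.822) and miR-140 for miR-145 (r = -0.927). All WT UV arrays gave miR-21 the same normalized value, as quantile normalization hands equal ranks equal values. Its mean and SD were also the same in WT no UV and KO UV, at 14.409 ± 0.353. The correlations of miR-21 with the pair are therefore bound by rank, with no variation of miR-21 within WT UV.

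Of the 9 miRNAs at the top or bottom of these orders, 3 could be matched to an arm of a RefSeq hairpin (GRCm38.p6) by the distance between the ends of its arms. They are shown because they could be matched, and they are not the most extreme of each order. Letters run 5′ to 3′ and capitals mark the seed, bases 2 to 8, by which a miRNA finds its targets.
miR-193, like the pair between arrays (miR-193a-3p, chromosome 11): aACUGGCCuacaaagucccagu
miR-26b, like miR-143 over all arrays (miR-26b-5p, chromosome 1): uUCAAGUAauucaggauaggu
miR-21, opposite to the pair (miR-21a-5p, chromosome 11): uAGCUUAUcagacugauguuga
The 3 seeds differ from each other. In WT skin none of these miRNAs was called after UV, at 0.52 for miR-193, -0.19 for miR-26b and 0.18 for miR-21.

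The ratio of miR-143 to miR-145 within an array does not depend on any scaling that is common to the array, and it shows unequal change of the pair rather than the level of either. Taken from unnormalized signals, its log2 without irradiation was 2.32 ± 0.09 (SD, n = 4) for WT, with values from 2.21 to 2.42, and 2.37 ± 0.08 for KO. After irradiation it was 3.27 ± 0.16 for WT, with values from 3.12 to 3.49, and 3.30 ± 0.18 for KO. In WT no UV, KO no UV and KO UV the SD of the ratio was below that of the normalized level of either member. In WT UV the SD of the ratio was 0.16, beside 0.07 for miR-143 and 0.16 for miR-145. In WT it was 0.95 higher after UV with no overlap (exact two-sided permutation p = 0.0286, the smallest that 4 against 4 arrays can give, adjusted p = 0.0857 over 3 tests), so it did not pass the threshold after adjustment. In KO it was 0.94 higher, given with no test, and few or none of the miR-145 spots were well above background on KO UV replicates 1 to 3. The genotypes differed by 0.04 without irradiation (exact permutation p = 0.486) and by 0.03 after it (exact permutation p = 0.743). The UV shifts of the ratio in WT and KO differed by 0.01. This last difference is given with no test.

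**Figure D3:**
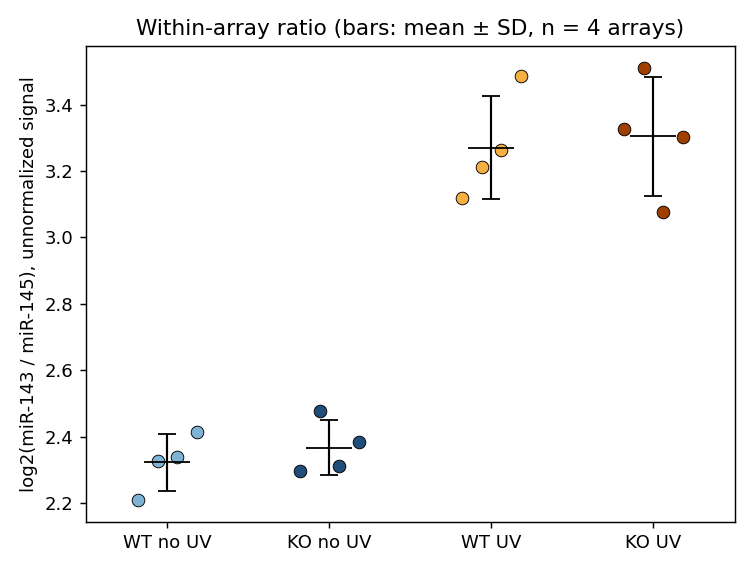
Log2 ratio of miR-143 to miR-145 on each array from unnormalized signals, by group. Points are arrays and bars are the mean ± SD of 4 arrays; the vertical axis does not start at 0. Both irradiated groups sit between 3.08 and 3.51 and both non-irradiated groups between 2.21 and 2.48.

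Where the unnormalized signal of miR-145 was close to 61 units, the log2 ratio was 2.34 on replicate 3 of WT no UV. It was 3.12 and 3.21 on replicates 1 and 2 of WT UV and 3.30 on replicate 4 of KO UV. Local background and the spread of the negative control spots differed between the slides, so 61 units is not a like measurement on both. The part of signal dimness in the ratio was not tested. Each miRNA had 2 probes of 10 spots each. On the non-irradiated slide 19 or 20 of the 20 miR-145 spots were well above background. Among the irradiated arrays 10 or 11 of 20 were for WT, and 0 to 10 for KO. For miR-143 it was 20 of 20 on every array but replicate 4 of KO UV, which had 18, and no spot of either member was saturated. Probe 1 of miR-145, the shorter one, had at most 2 of 10 spots well above background on a WT UV array and 0 on each KO UV array. Probe 2 had 9 or 10 in WT UV. The dimmer probe was thus near the limit of the scanner in the irradiated groups, and the other was measured in WT UV.

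Scaled to the 75th percentile of each array, probe 2 of miR-145 differed between WT UV and WT no UV by -0.998. No value is given for probe 1 of miR-145 in the irradiated groups, where few or none of its spots were well above background. The miR-143 probes differed by -0.11 and -0.12. The gap between the members in WT was therefore present in the probe that remained well above background. In KO the miR-143 probes differed by -0.91 and -0.85. Probe 2 of miR-145 gets no value there, with 2, 0, 2 and 10 of its 10 spots well above background on replicates 1 to 4 of KO UV. The detection call of the software for the summed signal of miR-145 was positive on these arrays too. The part of slide background in the ratio was not tested.

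**Figure D4:**
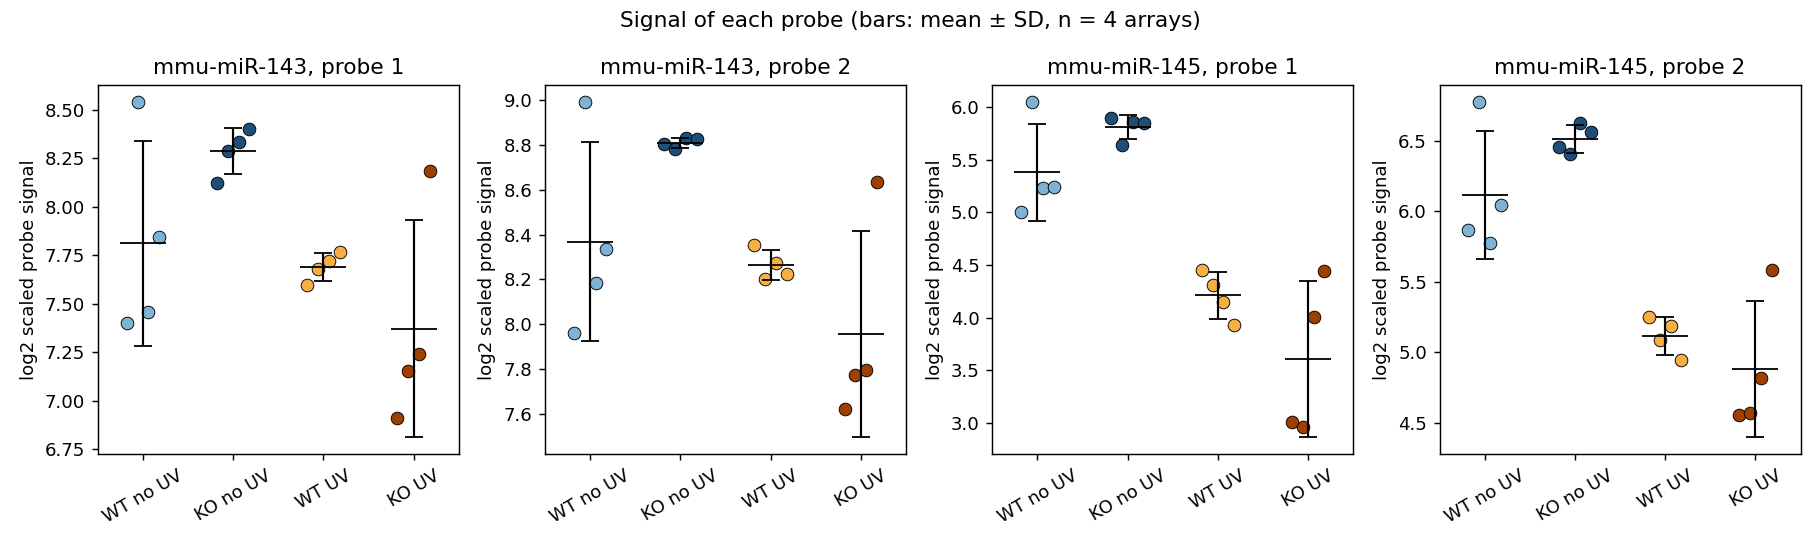
Signal of each of the 2 probes of miR-143 and of miR-145, log2 after scaling to the 75th percentile of the array, by group. Points are arrays, bars are the mean ± SD of 4 arrays, and the vertical axes differ and do not start at 0. Probe 2 of miR-145 was lower in WT UV than in WT no UV (-0.998), whereas the probes of miR-143 differed by -0.12 and -0.11. Points of probe 1 of miR-145 in both irradiated groups, and of probe 2 on 3 of the 4 KO UV arrays, rest on spots that were mostly not well above background.

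To set the pair beside other miRNAs that act in the muscle cell of the vessel wall, a list of 12 was drawn up, all of which were tested. It holds 4 with a role in the contractile state (miR-143, miR-145, miR-1 and miR-133a) and 8 linked to growth, migration or its restraint, among them miR-21, miR-221 and miR-222. In WT after UV 1 of the 12 was called higher and 4 lower, with a median difference of -0.12, beside 16.2% called and a median of 0 over all tested miRNAs. Besides miR-145, the lower ones were miR-221 (-1.32, SE 0.18; limma adjusted p = 0.00023), miR-222 (-1.30, SE 0.20; limma adjusted p = 0.000599) and miR-146a (-0.45, SE 0.14; limma adjusted p = 0.0468). miR-221 and miR-222 come from a transcript of their own and promote smooth muscle growth, and miR-146a dampens inflammatory signalling. The one called higher was miR-130a (0.46, SE 0.11; limma adjusted p = 0.00963). The fall in WT thus took in miR-145 of the contractile set along with growth miRNAs. miR-1 and miR-133a, at -0.07 and -0.28, were not called.

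In KO after UV the other contractile miRNAs were called. Of the 10 list members other than the pair, 2 were called higher and 2 lower, beside 29.8% over all tested miRNAs. The lower ones were miR-133a (-1.25, SE 0.19; limma adjusted p = 0.00125) and miR-1 (-1.001, SE 0.20; limma adjusted p = 0.00477), the remaining members of the contractile set. The higher ones were miR-31 (1.30, SE 0.24; limma adjusted p = 0.00328), which is raised in proliferating keratinocytes, and miR-21 (0.68, SE 0.18; limma adjusted p = 0.0173). miR-221 and miR-222 were at -0.46 and -0.48 and were not called. Between genotypes 0 of the 12 were called in either irradiation state, and 0 of the 10 other than the pair had a called difference of UV effects. With limma and no adjustment, p was under 0.05 without irradiation for miR-1 (+0.71), miR-133a (+0.75), miR-21 (-0.68), miR-221 (-0.66) and miR-222 (-0.65), among others, with adjusted p of 0.0635 to 0.119 for these 5. On every KO no UV array miR-1 took the same normalized value, 14.585 (SD 0), which miR-21 took on every WT UV array. For miR-21 the mean and SD were also the same in WT no UV and KO UV, at 14.409 ± 0.353. The size and SE of differences that involve these groups are therefore bound by rank for the miRNA concerned, the rise of miR-21 in KO included.

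**Figure D5:**
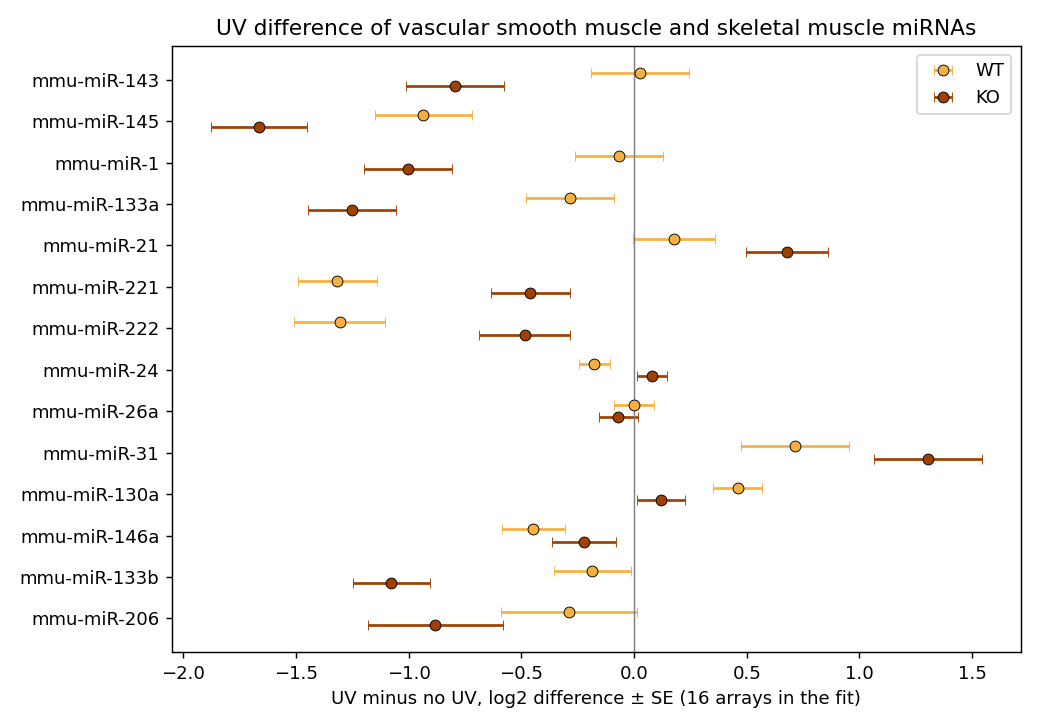
UV minus no UV difference in log2 units for the 12 vascular smooth muscle miRNAs and for miR-133b and miR-206 of the skeletal muscle list. Points are the fitted differences in WT (light) and KO (dark) and bars are ± 1 SE from the fit over 16 arrays. miR-145 is left of 0 in both genotypes, miR-143, miR-1 and the miR-133 miRNAs lie further left in KO than in WT, and miR-221 and miR-222 lie further left in WT; none of the 10 vascular smooth muscle miRNAs other than the pair had a called difference of UV effects between genotypes.

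Markers of other cell types moved along with parts of this pattern. miR-1 and miR-133a belong to skeletal muscle as well as to smooth muscle. Of the 5 skeletal muscle miRNAs, 4 were tested, since the heart and slow-muscle miRNA miR-499 was not detected on any array. All 4 were called lower in KO after UV, with a median of -1.04, beside 26 of 228 lower and a median of 0 over all tested miRNAs. In WT 0 of the 4 were called, beside 16.2% over all tested miRNAs. Without irradiation the summed normalized signal of the skeletal muscle miRNAs was 20453 to 41168 for WT and 40655 to 50330 for KO. With irradiation it was 21899 to 25989 for WT and 19469 to 24495 for KO. KO no UV thus had the highest median sum of skeletal muscle miRNAs, 42703, and the highest mean of miR-143 and of miR-145. The part of skeletal muscle content in the levels of the pair was not tested.

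The 4 fibroblast miRNAs, of the miR-199 and miR-214 transcripts, summed to 5169 to 6729 for WT and 4274 to 5775 for KO without irradiation, and to 5907 to 6271 for WT and 4503 to 5672 for KO with it. None of them was called in WT after UV, and in KO 1 was called higher, miR-214 (0.32, SE 0.10; limma adjusted p = 0.036). Beside this count and those below, 21 of all 228 tested miRNAs were called higher and 16 lower in WT. In KO 42 of the 228 were called higher and 26 lower. The summed fibroblast ranges overlapped between irradiated and non-irradiated skin in either genotype. Of the 2 strands of miR-126, a miRNA of vessel endothelium, miR-126-3p was called higher in WT after UV (0.46, SE 0.07; limma adjusted p = 0.000599), and 0 of the 2 were called in KO. The other strand, miR-126-5p, went the other way with no call, at -0.24 in WT and -0.55 in KO, where miR-126-3p was at 0.007. Of the 7 keratinocyte miRNAs 4 were called higher in WT and 6 in KO, and their sum was 21539 to 25477 without UV and 26081 to 31708 with it in WT, and 22225 to 27764 and 29320 to 43027 in KO. The largest of these differences was that of miR-200c, an epithelial miRNA, which rose by 0.83 in WT with limma adjusted p = 0.000988 and by 0.80 in KO with limma adjusted p = 0.00249. The sum of the 6 leukocyte miRNAs was 4550 to 6008 without UV and 3491 to 4310 with it in WT, and 2777 to 4532 and 3003 to 3506 in KO. Among them 2 were called lower in WT, miR-150 (-1.05) and miR-342-3p (-1.39). In KO, 1 was called lower, miR-150 (-0.56), and 1 higher, miR-155 (0.65). miR-144 of the erythrocyte list was not tested, and of the other 2 miR-486 was called lower in KO (-0.86, limma adjusted p = 0.0135). In WT the fall of miR-145 therefore stood beside higher epithelial miRNAs, 2 lower leukocyte miRNAs, and fibroblast and skeletal muscle miRNAs with no call. Of the endothelial strands miR-126-3p was higher and miR-126-5p had no call. The part of tissue composition in it was not tested.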

How the data were processed

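Total RNA from dorsal skin was hybridised to 16 single-colour Agilent arrays, 4 per group. Groups came from the labels. Per the file headers, the deposited scanner files hold intensity values from Feature Extraction 9.5.3.1 (design 19119, mm9 annotation), background-subtracted and summed per miRNA over its spots, with a detection call and not normalized between arrays. The log2 values of the deposited series table, which the authors had normalized by an invariant set and by quantiles, served for comparison only.

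Summed signals were brought to common quantiles (limma 3.58.1, R 4.3.3), raised to a floor of 19.4 units (log2 4.28, the 5th percentile of detected signals on a median array) and log2 transformed, which understates changes of dim miRNAs. The 228 miRNAs that some group detected on each of its arrays were fitted with lmFit and eBayes over all 16 arrays. Calls required an adjusted p under 0.05 (Benjamini-Hochberg over the 228). The fit had 12 residual and 0.802 prior degrees of freedom. Correlations of deviations used 100000 permutations within groups, and ratios used exact permutation tests. The number of arrays limits the precision. Scripts were tested on simulated data.

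The members and lists were chosen with earlier results of these data known. Named beyond the pair were the 3 miRNAs most alike by each correlation, called members of the vascular smooth muscle list with miR-1, miR-133a, miR-21, miR-221 and miR-222, and up to 2 per other list, by the size of the UV difference in KO. A few called members of the short lists and the lowest correlations were named after their values were seen. Alternatives changed normalization, background, filter, floor, test, threshold, block, slide row and the arrays used.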

Additional observations from a re-analysis of the deposited data

Results flagged for a closer look

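Of 20 groups of 4 values examined (both miRNAs on the normalized and the unnormalized scale, and their ratio), 2 held a value whose gap to the nearest of the others was larger than Dixon's limit for 4 values, which chance gives in about 1 group in 20. In WT no UV replicate 2 the normalized log2 level of miR-145 was 7.15, against 6.60 for the nearest array and 6.50 for the lowest, a gap of 0.838 of the range. In KO UV replicate 4 the unnormalized signal of miR-143 was 609 intensity units, against 321 for the nearest array and 277 for the lowest, a gap of 0.865 of the range. On both arrays the other member of the pair was the highest of its group as well.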

How the results depend on the processing

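With 4 arrays per group and the dim signal of miR-145 on the irradiated slide, differences of the size seen between genotypes could not be settled here. The fall of miR-145 in WT after UV kept its direction throughout. It was -0.67 with no normalization (limma adjusted p = 0.0971) and -0.93 in an exact permutation test (adjusted p = 0.133, where no miRNA passed). At the methods' threshold, an adjusted p under 0.001 and 1.5-fold, it was not called. Leaving out 1 array gave -1.01 to -0.78, all called. For miR-143 the difference in WT turned to -0.11 with the 75th percentile of miRNAs detected on all arrays, -0.0062 with normexp, -0.00075 in the authors' series table and -0.023 with slide row as a covariate, and ran from -0.074 to 0.22 without 1 array. With no normalization the genotype differences without irradiation (0.996 and 0.95) and the differences of UV effects (1.62 for miR-143 and 1.61 for miR-145) were larger, where the median of all tested miRNAs shifted by 0.52 and 0.77, and the UV differences in KO were -1.35 and -2.28. Normexp gave -0.46 for miR-145 in KO. Leaving out 1 array gave 0.71 to 1.03 for the difference of UV effects of miR-143, 1.02 without WT no UV replicate 2. The genotype difference of the log2 ratio after UV, near 0, was -0.058 from quantile-normalized signals, -0.11 in the series table and -0.035 to 0.11 without 1 array, and the UV shift of the ratio in KO was 0.71 in the series table. The correlation of the pair was 0.705 to 0.947 under 5 alternatives and 0.811 to 0.933 without 1 array. Over all groups the replicate numbers gave no steady pairing (24 correlations of deviations from -0.348 to 0.378, 15 above 0.1), although all 4 same-numbered pairs of WT no UV with WT UV lay above 0.1 (0.132 to 0.320), as did those of KO no UV with WT UV (0.172 to 0.378), and the labels do not say what the numbers stand for. With replicate as a block, miR-145 in WT kept -0.93 (limma adjusted p = 0.0268) and no call of the pair changed. Within the 2 slide rows, KO minus WT without UV was 0.24 and 0.63 for miR-143 and 0.16 and 0.66 for miR-145. Over all settings the calls ran from 0 to 111 and 0 to 7 between genotypes without and with UV (0 and 5 as reported), from 0 to 58 in WT (37), from 0 to 130 in KO (68) and from 0 to 138 for the difference of UV effects (5). The causes of these shifts were not tested. With no filter most residual variances were 0 and the moderation is unreliable.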
